A study of Mus musculus with 12 samples.

Results

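Gene expression in wild-type (WT) mouse retinal pigment epithelium (RPE) was compared between an embryonic age, E15.5, and a postnatal age, P5 (days of gestation and days after birth). The members are all genes of the deposited expression table with a value above its floor of 50 in at least 3 of the 6 WT libraries, 12932 of 13942 genes; the other 1010 stood below that rule and were not tested. The study sequenced poly(A) RNA of RPE from mice of strain C57BL/6J in 4 groups of 3 libraries: WT at E15.5, WT at P5, and a Sox9 conditional knockout (cKO) at each age. The comparison described here uses the 6 WT libraries, which carry no deletion by their labels, and the libraries labelled cKO enter the estimate of spread and a closing contrast. The Cre line behind the knockout, the way RPE was separated from its neighbours and whether the replicates were separate animals are not stated in the labels, so p-values here reflect the spread among these samples, which may be technical.

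The RPE is a single layer of pigmented epithelium between the photoreceptors and the choroidal vessels. It makes melanin early in eye development, and later takes on the work that photoreceptors depend on: it regenerates 11-cis-retinal in the visual cycle, moves ions, water, lactate and nutrients between blood and retina, and engulfs shed outer segment tips for digestion in lysosomes. Its cells leave the cell cycle around birth in the mouse, before outer segments form.

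Values are quantile-normalised gene counts, in which every library has the same distribution, with a median of 367.4 and 9.87% of the table at the floor of 50. A difference between ages is therefore a change of a gene's place relative to the other genes of its library, a change of total RNA cannot be seen, and the depth behind a value is unknown. In bulk RNA of this kind, fewer cells of a type and less RNA per cell cannot be told apart. The E15.5 WT libraries resembled each other closely (correlation across genes 0.989 to 0.993, median SD of a gene 0.11 on the log2 scale), the P5 WT libraries less so (0.843 to 0.964, median SD 0.31).

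P5 WT replicate 3 stood apart, and markers of the neighbouring retina were the clearest sign of it. The 23 photoreceptor genes tested averaged 6.37, 6.34 and 6.36 (log2) in the E15.5 WT libraries and 8.21, 9.47 and 11.95 in the P5 WT libraries, and the 20 genes of inner retinal neurons 7.99, 7.73 and 8.11 against 7.12, 7.91 and 9.90. Crx, the photoreceptor homeobox factor, stood at 64.8, 50 and 73.6 at E15.5 and 419, 1420.5 and 16367 at P5, highest in replicate 3. In the same replicate 3 the melanin list was the lowest of the P5 WT libraries at 9.37, against 11.10 and 10.89 in P5 replicates 1 and 2. It lay within the 9.28 to 9.74 of the E15.5 WT libraries. Muscle and surface ectoderm markers followed other orders: the 28 muscle genes averaged 9.99, 10.84 and 10.11 at E15.5 and 9.98, 8.56 and 7.90 at P5, and the 27 surface ectoderm genes 8.86, 8.91 and 8.28 against 6.60, 7.27 and 6.22. The part of these tissues in the age changes below was not tested. For a part of the lists, results are also given without P5 WT replicate 3. List results without such a value rest on all 6 WT libraries.

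**Figure D1:**
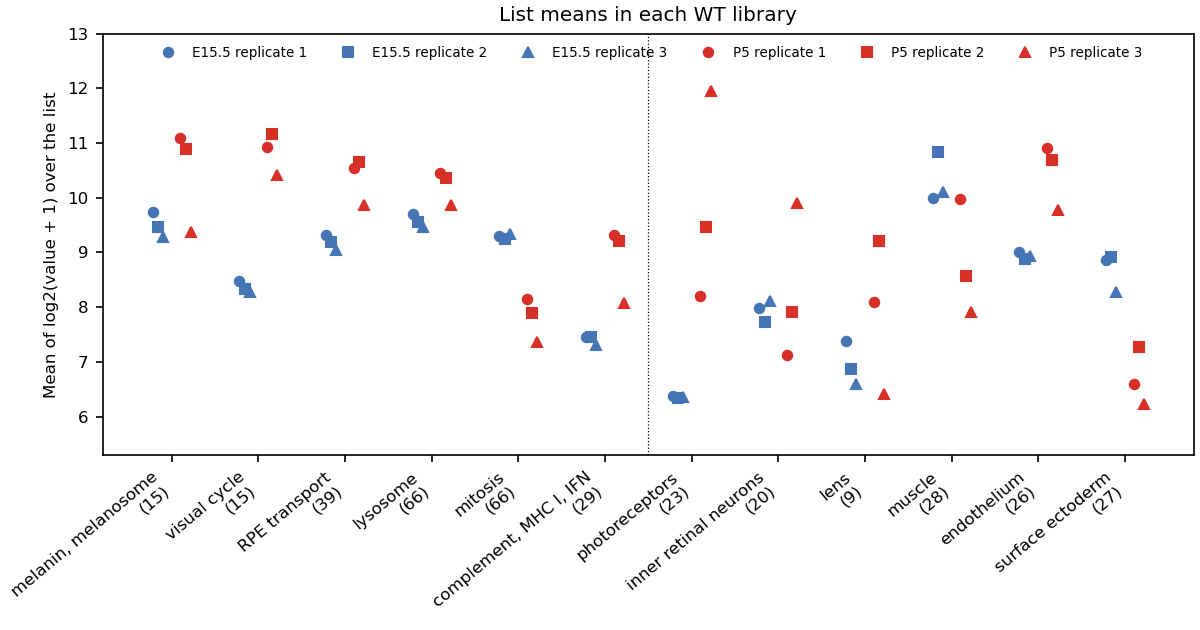
Mean of log2(value + 1) over the tested genes of 12 lists (number of genes in brackets) in each of the 6 WT libraries, blue for E15.5 and red for P5, with a symbol per replicate. The dotted line separates lists of RPE function and cell state from lists of other tissues. P5 replicate 3 (red triangle) is highest for photoreceptors at 11.95 and lowest of the P5 libraries for melanin at 9.37.

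Of the RPE's own defining markers, Tyr, Tyrp1, Dct, Pmel, Mlana, Mitf, Otx2, Rlbp1 and Rdh5 were above the floor in all 6 WT libraries. Rpe65 and Kcnj13 were at the floor in all E15.5 libraries and above it in all P5 libraries. The 12th, Best1, was not among the genes tested.

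Between E15.5 and P5, 2040 genes rose and 3173 fell, which is 15.8% and 24.5% of the 12932 genes tested (limma, adjusted p under 0.05). Counts of rises and falls in the lists below are to be read beside these shares. The median log2 fold change was 1.06 among the rises and -0.77 among the falls, and -0.10 over all genes tested. At least 4-fold changes were more often rises (298) than falls (183), and of the changes of at least 16-fold 32 were rises and 10 falls. Without P5 WT replicate 3 the counts were 2668 rises and 3751 falls, which held 1880 of the 2040 rises and 2911 of the 3173 falls. Where a gene stood at 50 in every library of an age, its fold change is measured from the floor and is a lower bound; 212 of the rises and 213 of the falls were of this kind. Such a gene passed the filter through the other age alone, so its direction was set once it was tested.

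**Figure D2:**
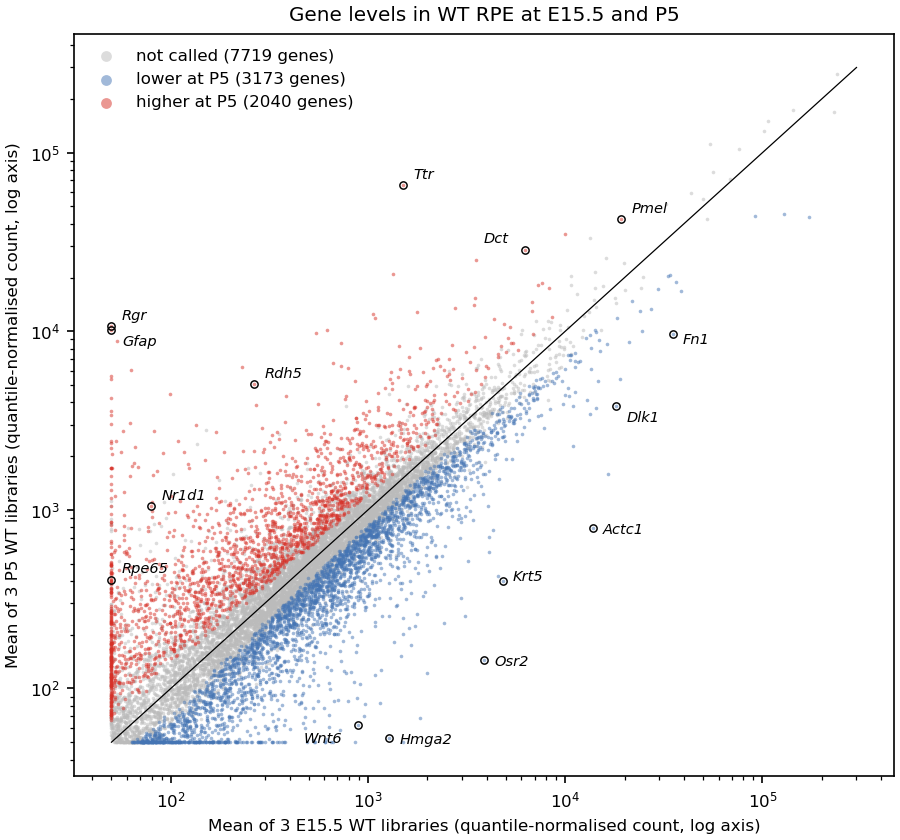
Mean value of each of the 12932 genes in the 3 E15.5 WT libraries (horizontal, log axis) against the 3 P5 WT libraries (vertical, log axis), both in quantile-normalised counts; the line marks equal values. Red points are the 2040 genes called higher at P5, blue points the 3173 called lower, grey points the rest, and open circles mark genes named in the text.

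Among the widest gaps between the lowest P5 and the highest E15.5 library were those of Rgr, Gfap, Ttr, Col10a1, Clec11a, S100b, Itgbl1, Prelp, Slc1a1, Rgs5, Rbp3, Myh1, Slco1a4 and Nr1d1. They mix RPE genes with genes of glia, vessels, muscle and matrix. Clec11a, a secreted growth factor of bone and marrow, stood at 64.2, 75.5 and 50 at E15.5 and 2174, 1656 and 1466 at P5. Prelp, a small leucine-rich matrix protein, stood at 56.5, 64.2 and 53.8 at E15.5 and 1508, 1322 and 937 at P5. Slc1a1, a glutamate transporter of neurons and epithelia, rose from 77.1, 67.5 and 50 to 1918, 2487 and 1091. Rgs5, a marker of pericytes, rose from 594, 567 and 479.7 to 12599, 9084 and 7511, and Slco1a4, an organic anion carrier of brain and retinal endothelium, from the floor to 1264, 1663 and 584. In each of these the age groups were far apart in all 3 libraries, with P5 replicate 3 the lowest. Rgs5 was the largest rise in a list of pericyte, smooth muscle and mesenchyme genes that did not rise as a whole. Of its 34 tested genes 4 rose and 10 fell (11.8% and 29.4%, against 15.8% and 24.5% over all genes tested, median -0.14).

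The widest gaps downwards were those of Hmga2, Osr2, Pitx1, Tnnt2, Epcam, Wnt4, Hbb-y, Wnt6, Dmrta2, Twist2, Msc, Barx2, Fgf15, Trp63 and Skp2. Pitx1, a homeobox factor of hindlimb, pituitary and facial ectoderm, stood at 794, 908 and 877 at E15.5 and at the floor in all 3 P5 libraries, as did Dmrta2 (476, 622 and 499.8 at E15.5), a neural progenitor factor, and Msc (468, 769 and 746), a factor of muscle progenitors. Skp2, the F-box protein that marks the Cdk inhibitor p27 for destruction, fell evenly from 977, 1101 and 1178 to 115, 120.2 and 123 (log2 fold change -3.17 ± 0.23 SE, adjusted p = 6.96e-06).

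Of the lists of RPE function and cell state, the visual cycle list had the highest median change. Of its 18 genes 15 were tested, 9 rose, none fell, and the median log2 fold change was 2.19 (2.42 with 12 rises without P5 WT replicate 3), against -0.10 for all genes. Of the 15, 3 (Rgr, Rpe65 and Lrat) were at the floor in every E15.5 library. They passed the filter only through P5, so their direction was set once they were tested. Rgr (chromosome 14, 37034909 to 37048964, GRCm38), an opsin of RPE and Müller glia that photoisomerises all-trans-retinal, was at the floor in every E15.5 library and at 10706, 14597 and 6784 at P5. Rdh5 (chromosome 10, 128913593 to 128922888), the 11-cis-retinol dehydrogenase, rose from 301, 271 and 217 to 4808, 7619 and 2796, a change of 4.16 ± 0.38 SE on the log2 scale (adjusted p = 2.56e-05). All 3 P5 libraries lay far above the highest E15.5 library for this gene. Rpe65 (chromosome 3, 159599175 to 159625321), the isomerohydrolase that makes 11-cis-retinol, came off the floor to 564, 479 and 178 (log2 fold change 2.84 ± 0.33 SE, a lower bound). Lrat, which makes its retinyl ester substrate, came off the floor to 532, 435 and 101 (2.49 ± 0.57 SE, a lower bound). For both, P5 replicate 3 was the lowest P5 library and still above all of E15.5.

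Rlbp1, the carrier of 11-cis-retinal, was already expressed before birth, at 1603, 1223 and 1094 at E15.5 and 6315, 6337 and 5142 at P5. Rrh, the RPE opsin peropsin, stood at 214, 183 and 129 at E15.5 and 1133, 1519 and 682 at P5. Ttr, the plasma carrier of thyroxine and of the retinol-binding protein, stood at 1602, 1473 and 1454 at E15.5 and 77449, 77449 and 42122 at P5. Replicates 1 and 2 share a value because the gene had the same rank in both, and quantile normalisation gives each rank 1 value. These 3 rises had log2 fold changes of 2.19 ± 0.20 SE, 2.61 ± 0.31 SE and 5.39 ± 0.29 SE. Rbp3, the retinoid-binding protein of the interphotoreceptor matrix that photoreceptors make, stood apart from the other members by its pattern: 60.5, 50 and 50 at E15.5 and 720.2, 1774 and 24109.8 at P5, with replicate 3 highest, as for the photoreceptor list. Among the members that did not pass were the general retinol-handling genes Rdh11 (0.02), Rdh14 (0.33), Dhrs3 (0.03), Rbp4 (0.40) and the retinol receptor Stra6 (0.53).

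The pigment list had a smaller median change, and several of its calls depended on single libraries. Of 15 genes of melanin synthesis and the melanosome matrix tested, 7 rose, none fell, and the median log2 fold change was 1.09, or 1.48 with 12 rises without P5 WT replicate 3. Tyrp1, which oxidises a late melanin intermediate, stood at 3468, 2681 and 2140.1 at E15.5 and 19463, 15573 and 5545 at P5 (log2 fold change 2.13 ± 0.43 SE, adjusted p = 0.00275). Dct, the dopachrome tautomerase, stood at 7559.8, 6114 and 5105 at E15.5 and 37268, 33277 and 15362 at P5 (2.11 ± 0.30 SE, adjusted p = 0.000408). Mlana, a melanosome membrane protein, stood at 1066, 1012 and 969 at E15.5 and 3142, 4535 and 1479 at P5 (1.44 ± 0.34 SE, adjusted p = 0.00686). Tyr, the rate-limiting tyrosinase, did not pass: it stood at 3813, 2891 and 2306 at E15.5 and 6997, 8052 and 2338 at P5, so that P5 replicate 3 lay inside the E15.5 range, with a log2 fold change of 0.79 (adjusted p = 0.137) and of 1.35 (adjusted p = 0.000927) without that library. The calls of Pmel (1.09), Slc45a2 (1.47) and Gpr143 (1.34), a fibril protein, a transporter and a receptor of melanosomes, did not hold when E15.5 replicate 2 or 3, or P5 replicate 1 or 2, was left out (adjusted p of 0.0796 to 0.125), nor, for the latter pair, without E15.5 replicate 1 (0.0554 and 0.0588).

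The 16 tested markers of neural crest melanocytes and Schwann cells, cells of the choroid that can also hold pigment genes, averaged 8.02, 8.20 and 7.92 (log2) at E15.5. At P5 they averaged 8.85, 8.97 and 8.16. Of the 16, 7 rose and 3 fell (43.8% and 18.8%, against 15.8% and 24.5% over all genes tested). Sox10, the defining factor of these cells and one that RPE lacks, rose from 545, 650.5 and 455 to 2669.8, 2829 and 942. Of the same list Erbb3, a neuregulin receptor of Schwann cells, fell from 629.8, 746.6 and 540.2 to 264.9, 198.5 and 53.7 and Snai2, a neural crest factor, from 547, 573.8 and 595.3 to 199.5, 193.3 and 89.2. Neither fall was called with a term for the photoreceptor signal (-0.27, adjusted p = 0.457 and -0.45, adjusted p = 0.129). That signal, the mean of the photoreceptor list, was 6.34 to 6.37 in all E15.5 libraries and 8.15 to 11.95 in all P5 libraries. It does not overlap between the ages, so its effect and that of age cannot be fully told apart, here and wherever the term is used below. The part of these cells in the pigment rises was not tested. Melanosome transport genes moved little as a list, with a median of 0.24. In that list of 29 tested, 8 rose and 2 fell (27.6% and 6.9%, against 15.8% and 24.5% over all genes tested). Its largest rises were those of the motor Myo7a (481, 437 and 388 at E15.5 and 1957, 2222 and 1109 at P5, log2 fold change 1.96 ± 0.22 SE) and its melanosome linker Myrip (311, 237 and 202 at E15.5 and 1509, 1712 and 625 at P5, 2.25 ± 0.33 SE).

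Promoter sequence is shown for Tyrp1 and Tyr because their windows hold CATGTG, the core of the M-box that MITF-type factors bind. The windows are RefSeq sequence of GRCm38.p6, 170 bases before to 30 after the start site, with the searched motif in capitals. Tyrp1 lies at chr4:80834043-80834242 on the plus strand and Tyr at chr7:87493483-87493682 on the minus strand.
Tyrp1: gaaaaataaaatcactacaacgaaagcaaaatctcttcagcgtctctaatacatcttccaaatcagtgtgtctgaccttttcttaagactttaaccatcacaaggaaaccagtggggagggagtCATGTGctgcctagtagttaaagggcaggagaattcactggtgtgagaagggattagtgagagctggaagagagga
Tyr: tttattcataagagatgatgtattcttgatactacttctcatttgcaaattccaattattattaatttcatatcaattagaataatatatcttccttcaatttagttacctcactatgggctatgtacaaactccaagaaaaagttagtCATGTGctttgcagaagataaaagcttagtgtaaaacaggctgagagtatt
CATGTG, searched on both strands of windows from 250 bases before to 50 after a start site, lay in 6 of 12 windows of the melanin list, in 8.20% of the 12627 windows of tested genes and in 14.15% of all 32851 windows. It started 46 bases before the start site of Tyrp1 and 21 before that of Tyr. A match is a description of the letters and not a site, and the data hold no measurement of binding.

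**Figure D3:**
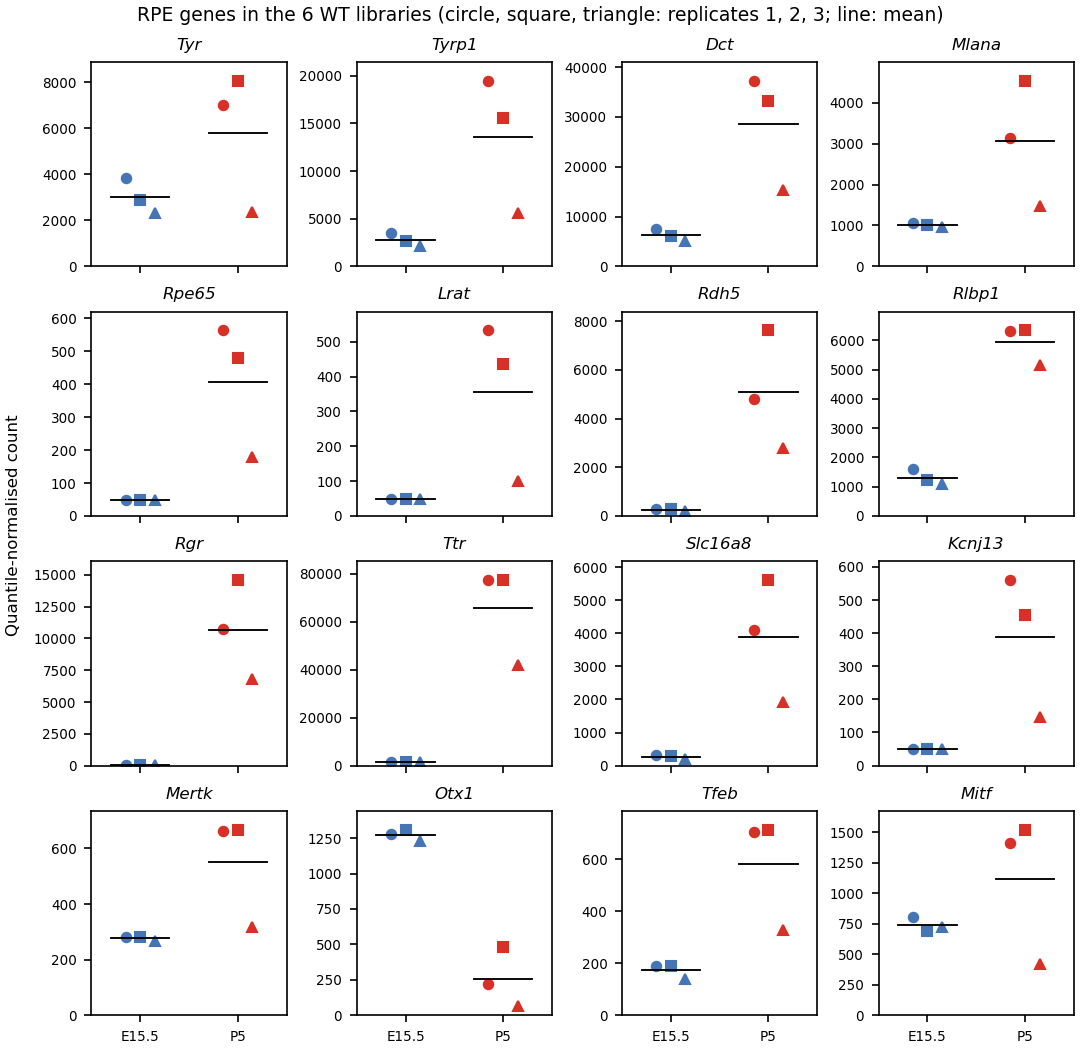
Quantile-normalised counts of 16 RPE genes in the 3 E15.5 (blue) and 3 P5 (red) WT libraries, each panel with its own axis from 0, symbols for replicates 1 to 3 and a line at the mean. Visual cycle genes such as Rgr and Rdh5 lie above every E15.5 library in all 3 P5 libraries, whereas P5 replicate 3 falls among the E15.5 libraries for Tyr and below them for Mitf.

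Of 39 tested channels, pumps and carriers 21 rose and 1 fell, with a median log2 fold change of 1.07 (1.23 with 28 rises without P5 WT replicate 3). Of the 39, 3 were at the floor in every library of 1 age, so their direction was set once they were tested. Slc16a8, the lactate exporter MCT3 of the basolateral RPE membrane, stood at 315, 281 and 212 at E15.5 and 4112, 5616 and 1927 at P5 (log2 fold change 3.73 ± 0.35 SE, adjusted p = 3.34e-05), and Bsg, the chaperone that brings it to the membrane, at 6997, 6617 and 6802 at E15.5 and 14159.8, 18242 and 11320.3 at P5 (1.07 ± 0.20 SE). Kcnj13, the apical inward-rectifier potassium channel Kir7.1, was at the floor before birth and at 560.4, 456 and 146 at P5 (2.72 ± 0.39 SE, a lower bound). Slc6a13, a GABA and taurine carrier, stood at 87.3, 94.5 and 60.4 at E15.5 and 1103, 1418 and 428 at P5, and Slc6a20a, a carrier of proline, at the floor at E15.5 and at 645, 1001 and 305 at P5. Car12, a carbonic anhydrase of the cell surface, stood at 454, 397 and 267 at E15.5 and 2501, 2718 and 794 at P5 (2.27 ± 0.40 SE). For all of these the lowest P5 library was replicate 3 and was above every E15.5 library.

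Atp1b2, a sodium pump subunit that photoreceptors and glia share, had the opposite order at P5, with replicate 3 highest: 649, 631 and 588 at E15.5 and 4641, 6393 and 19463 at P5. Slc16a3, the lactate exporter MCT4 of glycolytic cells, was the list's only fall (-0.77). Among the members that did not pass were the chloride cotransporter Slc12a2 (0.43), the bicarbonate cotransporter Slc4a4 (0.25), the glucose transporter Slc2a1 (0.72) and the water channel Aqp1 (0.48).

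The transcription factors of RPE identity did not move as a group. Of 17 tested 4 rose and 2 fell (23.5% and 11.8%, against 15.8% and 24.5% over all genes tested), with a median log2 fold change of 0.29. Otx1 fell (chromosome 11, 21994764 to 22002897; 1281, 1309.8 and 1227 at E15.5 and 218, 478 and 66.2 at P5; log2 fold change -2.73 ± 0.60 SE, adjusted p = 0.0047), and with a term for the photoreceptor signal the change was -2.20 (adjusted p = 0.0615). Otx2, its paralogue and a regulator of both RPE and photoreceptors, rose with replicate 3 highest: 1649.9, 1412 and 1249.7 at E15.5 and 4123, 7032 and 13598 at P5 (2.36 ± 0.44 SE; 1.91 without that library). Tfeb, a MITF relative that drives lysosomal genes, rose from 190.3, 190.3 and 138 to 704, 713 and 327 (1.67 ± 0.26 SE, adjusted p = 0.000708). Mitf itself, the pigment cell regulator, stood at 803, 693 and 723 at E15.5 and 1412, 1521 and 423 at P5 and did not pass (0.39, adjusted p = 0.449); without P5 replicate 3 it was at 0.99 (adjusted p = 0.000823). Sox9 stood at 1156, 1060.3 and 932 at E15.5 and 964, 1499.5 and 1111 at P5 and did not pass (0.16), and its sign turned without P5 WT replicate 2 (-0.01). Pax6 stood at 2835, 2777 and 2662 at E15.5 and 435, 1685 and 3229 at P5, a spread at P5 too wide for a call (-1.05, adjusted p = 0.277).

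Of 14 retinoic acid genes tested 2 rose and 5 fell (14.3% and 35.7%, against 15.8% and 24.5% over all genes tested, median -0.37). A synthase was among the rises and another among the falls. Aldh1a3, the retinoic acid synthase of the ventral optic cup, fell from 653, 825 and 969 to 211, 109.9 and 50.3 (log2 fold change -2.92 ± 0.45 SE), and the cytosolic carrier Crabp2 from 1556, 1496 and 1826 to 334, 513 and 345 (-2.05 ± 0.21 SE). Cyp26a1, which breaks retinoic acid down, rose from 150.2, 159 and 126 to 699, 570.2 and 492. Aldh1a2, the synthase of choroid and mesenchyme, stood at 1059, 1245 and 1322 at E15.5 and 2539, 2366 and 1396 at P5, a call lost without any 1 of 5 of the WT libraries (E15.5 replicates 1, 2 and 3 and P5 replicates 1 and 2; adjusted p of 0.0792 to 0.137).

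Of 26 genes of outer segment phagocytosis 10 rose, 1 fell and 15 did not pass. The rises and falls were 38.5% and 3.8%, against 15.8% and 24.5% over all genes tested. Their median log2 fold change was 0.46, or 0.49 with 12 rises and 1 fall without P5 WT replicate 3. Mertk, the receptor kinase that triggers engulfment, stood at 280.4, 281 and 267 at E15.5 and 665, 668 and 318 at P5 (0.91 ± 0.24 SE, adjusted p = 0.013), and its ligand Gas6 at 861, 1013 and 564 at E15.5 and 2576, 2606 and 1205 at P5 (1.35 ± 0.29 SE). Scarb1, a scavenger receptor that takes up lipid and carotenoids, stood at 748, 694 and 637 at E15.5 and 2404, 2093 and 2149.9 at P5 (1.68 ± 0.13 SE, adjusted p = 9.34e-06), with all P5 libraries close together. Ceacam1, an adhesion molecule of epithelia and vessels, came off the floor to 314, 249 and 147. The ligand bridge Mfge8 (0.26) and its receptor subunits Itgav (0.68) and Itgb5 (-0.18) did not pass. The only fall was that of the non-muscle myosin Myh10 (-1.40). Tulp1, the list's largest rise (3.29), stood at 116, 134 and 150 at E15.5 and 304, 955 and 7739 at P5. As for the photoreceptor list, replicate 3 was highest. Its call was lost without E15.5 replicate 1, 2 or 3 or P5 replicate 2 or 3 (adjusted p of 0.0501 to 0.0742). The call of Tyro3 (0.96) was lost without E15.5 replicate 1, 2 or 3 or P5 replicate 1 or 2 (adjusted p of 0.0628 to 0.118).

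Of 66 lysosomal genes tested 38 rose, none fell and 28 did not pass, with a median log2 fold change of 0.61 (0.75 with 50 rises without P5 WT replicate 3). The protease Ctsd, a main digestive enzyme of outer segment protein in RPE, stood at 9084, 6927 and 5881 at E15.5 and 20182, 22676 and 11751 at P5 (1.29 ± 0.25 SE, adjusted p = 0.00225). Naglu, a heparan sulfate glucosaminidase, stood at 310.4, 276 and 248 at E15.5 and 919, 836 and 476 at P5 (1.36 ± 0.24 SE), and Gm2a, the ganglioside activator, at 649, 569 and 573 at E15.5 and 1797, 1894 and 1073 at P5 (1.37 ± 0.21 SE). Lgmn, an asparaginyl protease, and Ctsf, a cysteine protease, had replicate 3 highest at P5, at 2717, 2427 and 3768 and 1333, 906 and 1771. Of 27 autophagy genes 10 rose and none fell (37.0% and 0.0%, against 15.8% and 24.5% over all genes tested, median 0.17). Among the rises were genes of the membrane-conjugation step and a cargo receptor, Gabarapl1 (0.68), Map1lc3b (0.60) and Sqstm1 (0.68). Without P5 WT replicate 3 the counts were 10 rises and 3 falls.

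CACGTG, the palindromic E-box at the centre of the lysosomal element that TFEB binds, lay in 30.51% of 59 windows of the lysosomal list (18 of 51 genes matched), in 9.74% of the windows of tested genes and in 7.15% of all windows. Ctsd and Naglu are shown as members with 1 match each within the printed window, in capitals, 98 and 73 bases before the start site. Ctsd lies at chr7:142387798-142387997 on the minus strand and Naglu at chr11:101069924-101070123 on the plus strand (RefSeq, GRCm38.p6).
Ctsd: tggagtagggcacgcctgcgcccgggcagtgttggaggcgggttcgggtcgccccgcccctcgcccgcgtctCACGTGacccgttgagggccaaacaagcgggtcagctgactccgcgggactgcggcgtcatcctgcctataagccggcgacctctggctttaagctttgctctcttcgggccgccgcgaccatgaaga
Naglu: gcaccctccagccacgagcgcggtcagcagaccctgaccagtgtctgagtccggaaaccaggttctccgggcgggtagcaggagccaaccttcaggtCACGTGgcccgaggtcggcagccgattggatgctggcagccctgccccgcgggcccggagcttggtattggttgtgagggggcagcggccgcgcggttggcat
The list's windows were read for their letters alone, and a window without a match says nothing of a factor.

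Of 42 junction and polarity genes 35 were tested, 8 rose and 6 fell (22.9% and 17.1%, against 15.8% and 24.5% over all genes tested; median 0.13). Cldn1 rose from 431, 443 and 268 to 2416, 1895 and 630.5 and Cldn2 from 148, 111 and 65.1 to 614, 512 and 164, both claudins of epithelia. Cldn3 fell from 244, 272 and 208 to the floor in all 3 P5 libraries. Cldn5, the claudin of endothelium, rose from 359, 355 and 328 to 2700.5, 3656 and 1839 (log2 fold change 2.92 ± 0.23 SE). Of 42 matrix genes 10 rose and 6 fell (23.8% and 14.3%; median 0.23; 0.59 with 18 rises without P5 WT replicate 3). Col4a3, a chain of the mature basement membrane network, stood at 593, 435 and 258 at E15.5 and 2824, 3443 and 1097 at P5 (2.44 ± 0.43 SE), Lamc3 at 64.3, 50 and 50 at E15.5 and 1082, 498 and 313 at P5 and Col8a1, a short-chain collagen of vessels and Bruch's membrane, at 4591, 3459 and 2319.8 at E15.5 and 20743, 14159.8 and 7053 at P5. The embryonic fibrillin Fbn2 fell from 15573, 13438 and 13782 to 5394, 3644 and 2184 (-2.02 ± 0.39 SE), and fibronectin, Fn1, from 42122, 32145 and 30832 to 13782, 8674 and 6603 (-1.91 ± 0.41 SE). With a term for the photoreceptor signal neither fall was called (-0.61, adjusted p = 0.0737 for Fbn2 and -0.53, adjusted p = 0.212 for Fn1).

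Of 25 secreted factors that act on vessels 9 rose and 4 fell (median 0.75; 1.15 with 15 rises without P5 WT replicate 3). Serpinf1, the angiostatic factor PEDF, stood at 2773, 2705 and 2539 at E15.5 and 9652, 8206 and 7324 at P5 (1.64 ± 0.21 SE, adjusted p = 0.000217), and Vegfa, which maintains the choriocapillaris, at 2047, 1911 and 1875 at E15.5 and 3718, 5359 and 3310.5 at P5 (1.06 ± 0.21 SE). Thbs1 rose from 2321, 1830.1 and 1368 to 10557, 10247 and 3290.3, and Angpt2 from 75.4, 65.8 and 50.9 to 318, 267 and 228. Sema3a, a repulsive guidance factor, fell from 1169, 957 and 1129.6 to 340.3, 203 and 167 (-2.25 ± 0.36 SE). The endothelial list rose as well: 20 of 26 tested genes rose and none fell, with means of 9.01, 8.89 and 8.94 at E15.5 and 10.91, 10.69 and 9.77 at P5 (log2), among them Vwf (349.9, 321 and 333 at E15.5 and 3526, 2202 and 1023 at P5) and Plvap (1758, 1539.8 and 1517 at E15.5 and 7977, 9217 and 4250.3 at P5). Their part in the changes of the secreted factors, of Notch genes and of the immune genes was not tested.

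Complement, MHC class I and interferon genes rose in the largest share of any list of cell function or state: of 44 genes 29 were tested, 23 rose and 1 fell, with a median of 1.35 (1.79, 26 rises and no fall without P5 WT replicate 3). Of the 29, 6 were at the floor in every library of 1 age, so their direction was set once they were tested. Serping1, the C1 inhibitor, stood at 516, 556 and 386 at E15.5 and 3553, 3123 and 1754 at P5 (2.48 ± 0.35 SE), and C1s1, the protease it blocks, was at the floor before birth and at 806, 450.3 and 260.0 at P5. C4b, the next component of that cascade, came off the floor to 398, 523 and 118. H2-K1 and H2-D1, classical MHC class I chains, rose by 2.86 ± 0.29 SE and 2.79 ± 0.20 SE; near-identical class I genes may share reads. H2-D1 stood at 302, 297 and 286 at E15.5 and 2508, 2393 and 1421 at P5, so the ages lay far apart. Of 18 tested macrophage and microglia markers 2 rose (11.1%, against 15.8% over all genes tested) and none fell. Their means were 7.88, 7.75 and 7.57 at E15.5 and 8.82, 8.34 and 7.29 at P5, and without P5 WT replicate 3 10 rose.

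Metal and oxidant defence genes also leaned upwards. Of 44 antioxidant enzymes and metallothioneins 16 rose and 3 fell (36.4% and 6.8%, against 15.8% and 24.5% over all genes tested). Their median was 0.23, or 0.48 with 21 rises and 2 falls without P5 WT replicate 3. Mt1, a zinc- and copper-binding metallothionein, stood at 257, 329.5 and 301 at E15.5 and 2487, 2954 and 1174 at P5 (2.80 ± 0.38 SE), Mt3 at 50, 55.8 and 50 at E15.5 and 669, 1277 and 373 at P5, and the extracellular superoxide dismutase Sod3 at 50.3, 78.1 and 50 at E15.5 and 786, 707 and 279 at P5. The 19 iron and copper genes had a median of 0.26, or 0.50 with 10 rises and 3 falls without P5 WT replicate 3. With all WT libraries 6 rose and 2 fell (31.6% and 10.5%, against 15.8% and 24.5% over all genes tested). Among them were Cp, the ferroxidase ceruloplasmin, at 157, 152 and 168 at E15.5 and 632, 1026 and 1415 at P5 (2.60 ± 0.30 SE), the endosomal ferrireductase Steap3 at 143, 165 and 108 at E15.5 and 1210.3, 960.1 and 672 at P5 (2.75 ± 0.28 SE) and the storage chain Fth1 at 5049, 5374 and 5912 at E15.5 and 8171, 9505 and 8206 at P5 (0.66 ± 0.11 SE).

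The cell cycle genes fell nearly without exception. All 66 tested genes of cyclins, mitosis and spindle fell, with a median log2 fold change of -1.54, and 48 of 49 DNA replication genes, with a median of -1.22; the exception was the single-strand binding subunit Rpa1 (-0.32). Without P5 WT replicate 3 the falls were 65 and 47, with medians of -1.26 and -1.11. The mitosis list averaged 9.31, 9.24 and 9.34 (log2) at E15.5 and 8.15, 7.90 and 7.36 at P5. Ccnf (chromosome 17, 24222198 to 24251484), the cyclin F of an S to M phase ubiquitin ligase, fell from 627, 558 and 724 to 132, 107 and 81.7 (-2.58 ± 0.27 SE, adjusted p = 6.11e-05). The spindle kinase Aurka fell from 472, 437 and 486 to 164, 139.6 and 70.2 and the condensin subunit Ncapg from 319, 268 and 318 to 73.0, 61.0 and 50. Mki67, the proliferation antigen, was still at 1618, 1419.6 and 1065 at P5, after 3919, 3463 and 3891 at E15.5. All P5 values of Ccnf, Aurka and Mki67 were above the floor.

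Of the replication genes, Cdc6, which loads the helicase at origins, fell from 274, 249 and 282 to 81.4, 50 and 50 (-2.17 ± 0.20 SE), and Uhrf1, which copies DNA methylation behind the fork, from 1298, 1257 and 1613 to 392, 304 and 172 (-2.33 ± 0.28 SE). The helicase subunit Mcm4 fell from 1505, 1453 and 1628 to 606, 539 and 300.1 (-1.73 ± 0.23 SE). Of 15 G1 cyclins and kinases 10 fell and none rose (median -0.83), among them Ccne1 (-1.93), Myc (-2.04) and Cdk4 (-1.05). The 24 Cdk inhibitors, pocket proteins and p53 targets had a median of 0.10, with 2 rises and 4 falls (8.3% and 16.7%, against 15.8% and 24.5% over all genes tested). Cdkn1b, which encodes p27, rose from 1134, 982 and 941 to 1406, 1627 and 1940.1 (0.69 ± 0.17 SE), and was at 0.21 (adjusted p = 0.35) with a term for the photoreceptor signal. Cdkn1c, which encodes p57 and is imprinted, fell from 17593, 20743 and 18743 to 5404, 5777 and 5132 (-1.81 ± 0.16 SE, adjusted p = 2.65e-05).

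Promoter windows of both lists were searched for short elements. TTTGAA, the core of the cell cycle genes homology region (CHR), and CCAAT were found together, on either strand, in 60.0% of 60 windows of the mitosis list (33 of 56 genes matched), in 3 of 46 of the replication list, in 4.64% of the windows of tested genes and in 6.95% of all windows. The E2F sites TTTCCCGC or TTTGGCGC lay in 23.91% of 46 windows of the replication list, in 6 of the 60 of the mitosis list and in 2.77% of those of tested genes. Cdk1, Cdc20 and Ccnf are shown with TTTGAA and CCAAT in capitals (TTCAAA and ATTGG on the other strand), as mitotic genes with both, and Mcm6 and Cdc6 with the E2F sites in capitals. They lie at chr10:69352883-69353082 (minus strand), chr4:118437314-118437513 (minus), chr17:24251380-24251579 (minus), chr1:128359676-128359875 (minus) and chr11:98907981-98908180 (plus) in GRCm38.p6.
Cdk1: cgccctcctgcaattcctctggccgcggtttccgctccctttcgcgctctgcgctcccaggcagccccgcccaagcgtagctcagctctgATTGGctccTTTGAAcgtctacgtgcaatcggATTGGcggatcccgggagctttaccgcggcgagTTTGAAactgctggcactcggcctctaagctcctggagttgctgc
Cdc20: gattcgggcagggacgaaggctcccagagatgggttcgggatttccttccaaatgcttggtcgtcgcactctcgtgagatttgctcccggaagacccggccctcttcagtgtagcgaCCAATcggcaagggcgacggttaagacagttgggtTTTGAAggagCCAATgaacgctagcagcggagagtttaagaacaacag
Ccnf: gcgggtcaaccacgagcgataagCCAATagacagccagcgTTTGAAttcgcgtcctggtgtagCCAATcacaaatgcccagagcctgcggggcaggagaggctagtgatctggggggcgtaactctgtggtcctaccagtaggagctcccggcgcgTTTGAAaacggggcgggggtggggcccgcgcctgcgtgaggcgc
Mcm6: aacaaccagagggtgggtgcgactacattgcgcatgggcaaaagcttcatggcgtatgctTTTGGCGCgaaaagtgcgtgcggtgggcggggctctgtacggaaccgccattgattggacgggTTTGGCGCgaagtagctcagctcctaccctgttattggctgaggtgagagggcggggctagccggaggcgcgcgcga
Cdc6: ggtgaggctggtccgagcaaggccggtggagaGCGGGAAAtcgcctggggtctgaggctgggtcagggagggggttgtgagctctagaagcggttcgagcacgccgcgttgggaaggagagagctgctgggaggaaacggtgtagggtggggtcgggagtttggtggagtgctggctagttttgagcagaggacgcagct
In Cdk1 and Ccnf a TTTGAA begins 15 and 14 bases before the start site, in Cdc20 18 bases before it, with CCAAT or its reverse further upstream in each. Cdk1 stood at 1090.5, 1165 and 1249 at E15.5 and 532, 568 and 322 at P5 and Mcm6 at 1871, 1759 and 1836 at E15.5 and 938, 763 and 419.9 at P5, and both fell (-1.34 ± 0.19 SE and -1.44 ± 0.33 SE).

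Genes of fetal growth fell with the cell cycle. Of 28 tested fetal growth regulators and imprinted genes 17 fell and none rose, with a median of -1.39 (-1.36, 21 falls and 1 rise without P5 WT replicate 3). Hmga2 (chromosome 10, 120361275 to 120476469), a chromatin protein of embryonic cells, fell from 1101, 1176 and 1571 to 52.2, 50 and 56.1 (-4.56 ± 0.20 SE, adjusted p = 3.4e-07). The mRNA-binding proteins Igf2bp2 and Igf2bp3 fell from 2169, 2182 and 2573 and from 675, 622 and 634 to 535, 485 and 402 and 115, 50 and 132. The paternally expressed Peg10 fell from 4429, 4654 and 3800.4 to 778, 975 and 573 (-2.50 ± 0.19 SE), and Dlk1, an imprinted Notch-type ligand, from 18242, 20182 and 16113 to 6192, 3072 and 2227 (-2.38 ± 0.42 SE). Igf2 (-1.52) and H19 (-2.03), a neighbouring imprinted pair, both fell.

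Chromatin genes fell in 23 of 42 cases and rose in 4 (median -0.60), or 30 and 3 without P5 WT replicate 3 (median -0.73). Hells, a remodeller needed for DNA methylation, fell from 521, 459 and 551 to 145, 123 and 86.1, and Lmnb1, the B-type lamin of dividing cells, from 3018, 2859.5 and 2966 to 867, 686 and 1142 (-1.74 ± 0.16 SE). Of 80 cytosolic ribosomal protein genes 72 fell and none rose, by a median of -0.62, such as Rpl4 (21548, 24109.8 and 26292 at E15.5 and 13010.5, 13135 and 13010.5 at P5) and Rps19 (4236, 4939.9 and 5394 at E15.5 and 2549, 3047 and 2113 at P5). Ribosomal protein genes have many processed pseudogenes, and how the counting shared such reads is not stated in the labels. The 66 genes of the respiratory chain did not follow: 2 rose, none fell, and the median was 0.05, near the -0.10 of all genes.

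**Figure D4:**
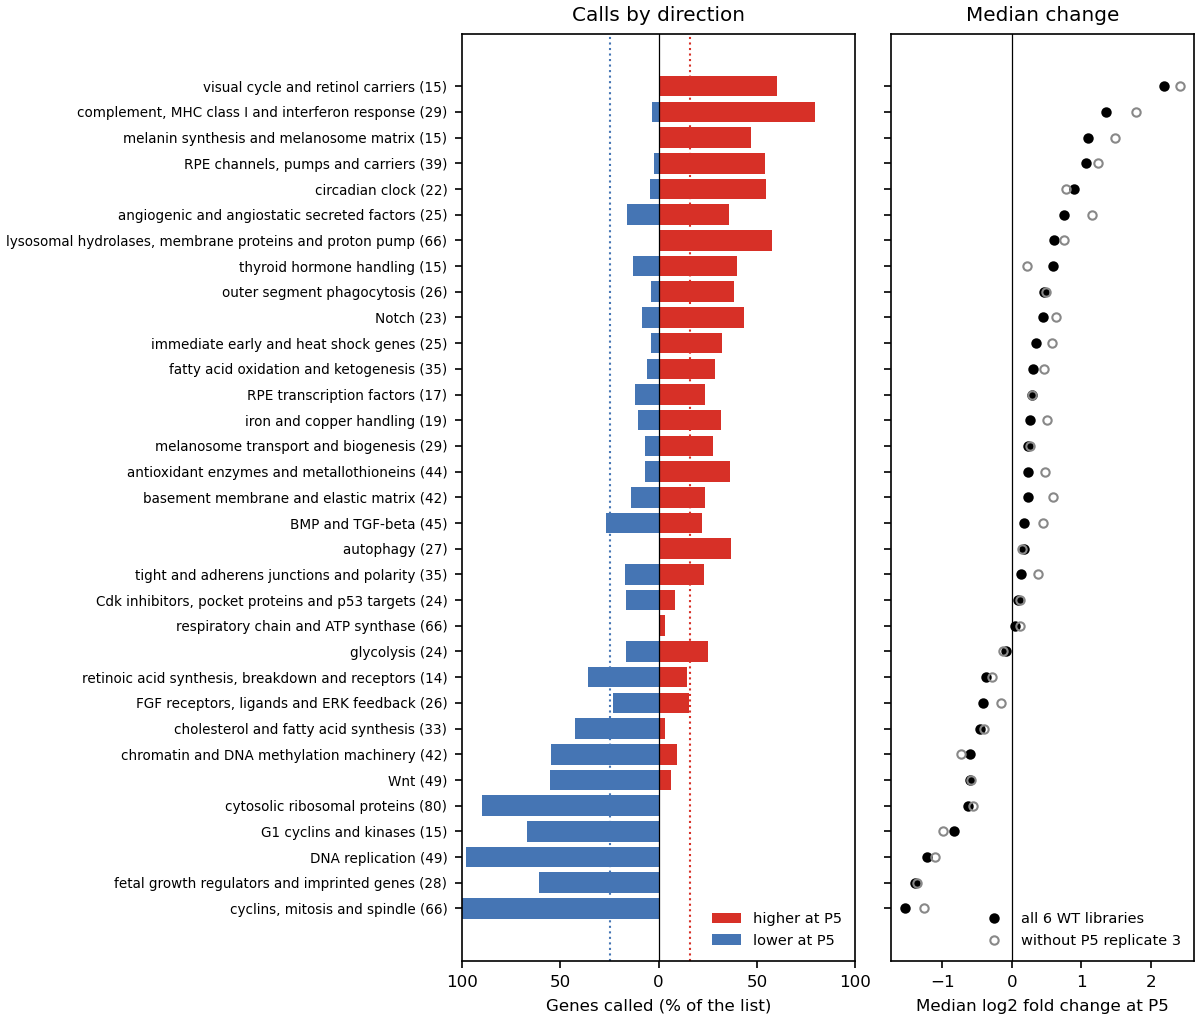
Left, percentage of the tested genes of 33 lists of RPE function and cell state (number in brackets) called higher (red, to the right) or lower (blue, to the left) at P5; dotted lines mark 15.8% and 24.5%, the shares over all genes tested. Right, median log2 fold change of each list with all 6 WT libraries (filled) and without P5 replicate 3 (open), from 2.19 for the visual cycle to -1.54 for mitosis.

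Cpt1a, which brings fatty acids into mitochondria, stood at 997, 877 and 767 at E15.5 and 3126, 2972 and 2372 at P5 (1.68 ± 0.13 SE, adjusted p = 1.16e-05). Of 35 genes of fatty acid oxidation and ketogenesis 10 rose and 2 fell (28.6% and 5.7%, against 15.8% and 24.5% over all genes tested). Their median was 0.30, or 0.47 with 20 rises and 2 falls without P5 WT replicate 3. Of 24 glycolytic genes 6 rose and 4 fell (25.0% and 16.7%, against 15.8% and 24.5% over all genes tested, median -0.08). Without P5 WT replicate 3 the counts were 8 and 8 (median -0.13). Aldoc (141, 147 and 121 at E15.5 and 819, 1425 and 927 at P5) rose, while the glucose transporter Slc2a3 (465, 408 and 535 at E15.5 and 74.3, 72.1 and 168 at P5) and the hexokinase Hk2 (311, 346 and 412 at E15.5 and 118, 136 and 123 at P5) fell. Of 33 genes of cholesterol and fatty acid synthesis 14 fell and 1 rose (median -0.45), with the regulator Srebf2 at 3126, 3176 and 2883 at E15.5 and 1880.3, 1730.3 and 1768 at P5 (-0.77 ± 0.12 SE).

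The clock genes rose in 12 of 22 cases and fell in 1 (median 0.89). Nr1d1 (chromosome 11, 98767932 to 98775333), the repressor REV-ERB alpha, stood at 87.1, 85.1 and 65.8 at E15.5 and 1208, 916 and 1016 at P5 (3.71 ± 0.23 SE, adjusted p = 2.4e-06), and Nr1d2 at 237, 266 and 199.9 at E15.5 and 1017, 932 and 945 at P5 (2.05 ± 0.12 SE, adjusted p = 2.32e-06). Dbp, an output factor of the clock, stood at 294, 288 and 273 at E15.5 and 1072, 1252 and 635 at P5, and Per3 at 168, 174 and 164 at E15.5 and 752, 635 and 456 at P5 (1.83 ± 0.16 SE). The negative-arm genes Per1 (0.56), Per2 (0.42) and Cry1 (-0.19) did not pass. The labels do not state the time of day of collection, so age and hour cannot be told apart for this list. Klf9, a target of thyroid hormone and glucocorticoids, rose from 90.4, 90.4 and 59.2 to 719.8, 348 and 499.7 (2.66 ± 0.29 SE), within a list of 15 tested thyroid hormone genes of which 6 rose and 2 fell (median 0.60; 0.21, 6 rises and 3 falls without P5 WT replicate 3). Of 25 immediate early and heat shock genes 8 rose and 1 fell (32.0% and 4.0%, against 15.8% and 24.5% over all genes tested). Their median was 0.35. Junb stood at 153, 169 and 139 at E15.5 and 548, 531 and 349 at P5. Dusp1 stood at 303, 283 and 272 at E15.5 and 1731, 771 and 496 at P5. P5 replicate 1 was highest for both.

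Among 4 signalling pathways, Wnt genes fell in the largest share. Of 49 tested 27 fell and 3 rose (median -0.60; 26 and 4 without P5 WT replicate 3). Of the 49, 8 were at the floor in every library of 1 age, so their direction was set once they were tested. Several ligands ended near the floor: Wnt4 went from 1099, 1287 and 1074 to 96.4, 101 and 50, Wnt6 from 902, 915 and 855 to 56.1, 82.3 and 50 and Wnt11 from 359.8, 308 and 312 to 97.5, 66.9 and 50, while Wnt10a went from 372, 350.5 and 259 to the floor in all 3. The receptor Ror2 fell from 771, 706 and 780.3 to 211, 102 and 60.3 (-2.77 ± 0.51 SE). The surface ectoderm list fell too, and its part in the Wnt falls was not tested.

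Of 45 BMP and TGF-beta genes tested 10 rose and 12 fell (median 0.17; 18 and 10, median 0.45, without P5 WT replicate 3). This is 22.2% and 26.7%, near the 15.8% and 24.5% over all genes tested. The ligand Bmp6 rose from 196, 193 and 195 to 1255, 1023 and 408 (2.04 ± 0.38 SE), and the matricellular target Ctgf from 354, 367 and 337 to 4485, 1962 and 999.9 (2.55 ± 0.45 SE). The ligand Bmp3 and the antagonists Grem1 and Fst had log2 fold changes of -2.48 ± 0.30 SE, -2.37 ± 0.31 SE and -2.04 ± 0.38 SE, and all fell. With a term for the photoreceptor signal Fst was at -0.99 (adjusted p = 0.0728). Of 26 FGF genes 4 rose and 6 fell (15.4% and 23.1%, near the shares over all genes; median -0.42). Fgf1 came up from 56.5, 50 and 50 to 415, 382 and 156, and Fgf15, a ligand of retinal progenitors, dropped from 602, 426 and 788 to the floor in all 3 P5 libraries. Of 23 Notch genes 10 rose and 2 fell (43.5% and 8.7%, against 15.8% and 24.5% over all genes tested, median 0.44). P5 replicate 3 was the lowest P5 library for Dll4 (157, 155 and 158 at E15.5 and 450.3, 466 and 322 at P5), Notch4 (334, 377 and 351 at E15.5 and 1211, 1039 and 628 at P5) and Heyl (642, 646 and 575 at E15.5 and 2659, 1693 and 1413 at P5). It was the highest for Hey2, the largest rise (50, 59.3 and 50 at E15.5 and 138, 230 and 256 at P5), Mfng (176, 173 and 179 at E15.5 and 473, 403 and 520 at P5) and Notch1 (1014, 910 and 643 at E15.5 and 1760, 1086 and 2566 at P5). The Notch1 call was lost without E15.5 WT replicate 3 (adjusted p = 0.0548) and with the 6 WT libraries alone (0.0636). With a term for the photoreceptor signal Notch1 was at 0.68 (adjusted p = 0.166).

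Lists of other tissues changed with age as well. Of 40 photoreceptor genes 23 were tested and 21 rose (median 3.67); without P5 WT replicate 3, 16 rose and the median was 2.39. Of the 23, 14 were at the floor in every E15.5 library, so these passed the filter only through P5, and the count is no support for a change. Nrl, the rod fate factor, stood at 269.9, 1031 and 9389.5 at P5, in the same order of libraries as Crx. Glial genes rose in 15 of 19 cases without a fall (median 1.26). Of the 19, 4 were at the floor in every library of 1 age, so their direction was set once they were tested. The order of libraries was another: Gfap, the astrocyte filament, stood at the floor before birth and at 5459, 18743 and 6362 at P5, and S100b likewise at 916, 2323 and 932, both highest in replicate 2. Some genes of the glial list, such as Rlbp1 and Clu, are also RPE genes. A list of ciliary body, iris and choroid plexus rose in 7 of 12 cases without a fall (58.3%, against 15.8% over all genes tested, median 1.175). It averaged 7.91, 7.90 and 7.84 (log2) at E15.5 and 9.23, 9.79 and 9.01 at P5. The part of these tissues in the rises of Ttr and other RPE genes was not tested.

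Among lens genes, the crystallin Cryaa was highest in replicate 2 and lowest in replicate 3 at P5: it stood at 572, 244 and 209 at E15.5 and 1019.7, 2293 and 107 at P5, and 1 of 9 tested lens genes was called (median 0.89), against 9 of 9 without P5 WT replicate 3 (median 1.40). Muscle genes fell in 14 of 28 cases and rose in 2 (median -1.49). The embryonic myosin Myh3 went from 14159.8, 23336 and 11929.7 to 3018, 1352 and 407 (log2 fold change -3.74; -2.15 with a term for the photoreceptor signal, adjusted p = 0.0633). The regulator Myog went from 1450.1, 2664 and 1839 to 219.6, 94.2 and 50. The adult fast myosin Myh1 was at the floor before birth and at 3299, 589.5 and 732 at P5. Surface ectoderm genes fell in 20 of 27 cases and rose in 2 (median -2.08). Of the 27, 12 were at the floor in every library of 1 age, so their direction was set once they were tested. Epcam and Trp63 were at 629, 577 and 598 and at 528, 542 and 409 at E15.5 and at the floor in all P5 libraries. Krt5, the basal keratin, was at 5459, 5718 and 3268 at E15.5 and 50, 1093 and 50 at P5, with P5 replicate 2 alone above the floor. Of 9 erythroid genes 7 fell (median -1.43), among them the embryonic globin Hbb-y, from 531, 609 and 3386 to the floor. Other globins resemble each other closely and may share reads.

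Whether the WT age change depended on Sox9 was asked by the interaction of age and genotype. It called 6 of the 12932 genes (0.0464%), and 3 of them without E15.5 WT replicate 1, 2 or 3, P5 WT replicate 2, E15.5 cKO replicate 1, or P5 cKO replicate 2 or 3, but 12 without P5 WT replicate 3. Sox9 was not lower in the libraries labelled cKO: its mean was 1010 ± 22.3 (SD, n = 3) at E15.5 and 2482 ± 405 (SD, n = 3) at P5, against 1049 ± 113 and 1192 ± 277 (SD, n = 3) in WT. A gene count sums all exons, and the labels do not name the deleted exons, so this value does not check the label. The directions below are those of the libraries labelled cKO.

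Rgr had the largest difference. It rose from the floor to 10706, 14597 and 6784 in WT, and in the libraries labelled cKO from the floor to 93.2, 199 and 204, a difference of the age changes of 6.02 ± 0.44 (log2, SE, adjusted p = 0.000543). Ttr had the opposite sign and another starting value: it was at 1602, 1473 and 1454 in WT and at 110, 89.1 and 85.3 in cKO libraries at E15.5, and at 37268, 68217 and 77449 in cKO libraries at P5 (difference -3.87 ± 0.41, SE, adjusted p = 0.00621). The potassium channel genes Kcnh1 (-2.04 ± 0.26, SE) and Kcnk1 (-1.74 ± 0.24, SE) rose in cKO libraries, to 265, 308 and 339 and to 438, 586 and 631 at P5, and not in WT, where Kcnk1 was called lower (-0.46, adjusted p = 0.0497), a call lost without any 1 of E15.5 WT replicates 1, 2 and 3 and P5 WT replicates 1 and 2 (adjusted p of 0.0627 to 0.176). Ism2 did the same, at 188, 237 and 261 in the P5 cKO libraries and at 58.4, 53.2 and 50 in WT. Lypd1, a surface protein of neurons, fell in WT from 166, 142 and 159 to the floor and stayed at 188, 162 and 197 in the P5 cKO libraries (difference -1.57 ± 0.20, SE). Rgr and Kcnh1 were at the floor in every E15.5 WT library and Lypd1 in every P5 WT library. These genes passed the filter through the other WT age alone, so the direction of their WT change was set once they were tested. A group at the floor has no spread, which narrows the SE of such a gene. In all but 6 genes the test of the difference did not pass, which does not show that the age changes were alike: Rpe65, at the floor in all P5 cKO libraries, had a difference of 2.84 with an adjusted p of 0.153.

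**Figure D5:**
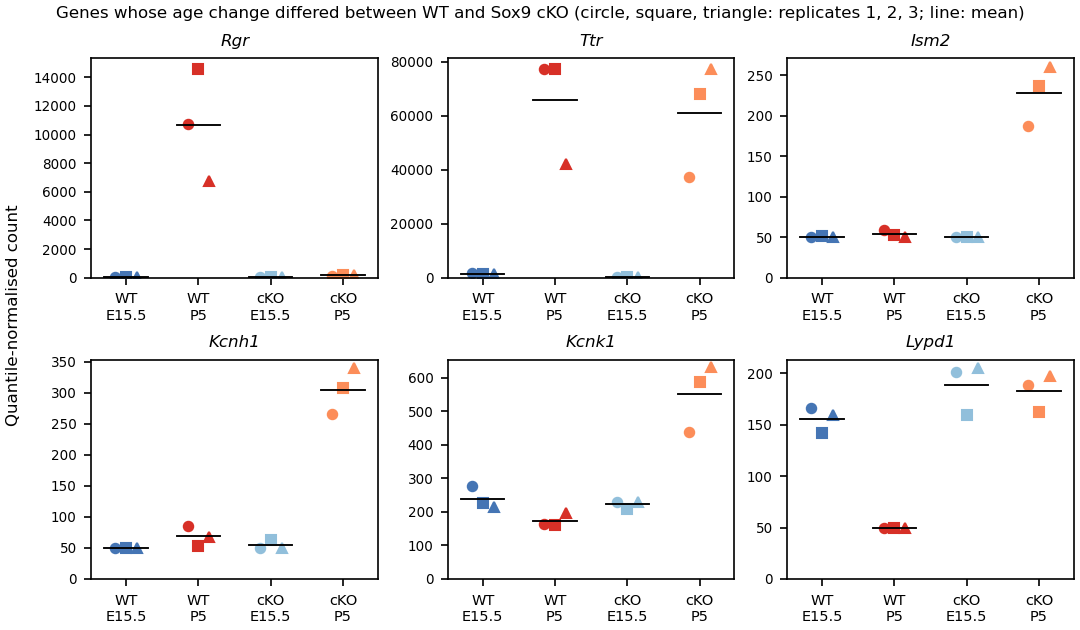
Quantile-normalised counts of the 6 genes whose age change differed between genotypes, in all 12 libraries by group, each panel with its own axis from 0, symbols for replicates 1 to 3 and a line at the mean. Rgr is high in the 3 P5 WT libraries alone, Lypd1 is at the floor of 50 there, and Ism2, Kcnh1 and Kcnk1 are high in the 3 P5 cKO libraries.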

How the data were processed

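RNA sequencing values came from the deposited expression table, in which the authors gave 1 signal per gene and library: gene counts, quantile-normalised over the 12 libraries, with values under 50 set to 50 (checked: all 12 columns held the same sorted values, 1376 of them at the floor). Per the submitters' processing notes, TopHat2 2.0.10, the mm10 genome and HTSeq were used; the notes name neither strand setting nor annotation, and depth is unknown. Gene positions were taken from GENCODE M21 (13927 of 13942 identifiers found).

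Values were taken as log2(value + 1), and 1 mean per group was fitted over all 12 libraries with limma 3.58.1 (R 4.3.3; eBayes with a mean-variance trend, two-sided, Benjamini-Hochberg over 12932 genes, called at adjusted p under 0.05), so that the WT spread is pooled with that of the libraries labelled cKO. Log2 fold changes are P5 minus E15.5, with the SE of the model. For 3 libraries against 3 the smallest exact permutation p is 0.1. The fit was tested on simulated data.

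Members and gene lists were chosen with earlier results of these data known, and lists overlap. Named genes were the 15 widest gaps and 8 largest changes in each direction, up to 6 per list (called first), called interactions, Sox9 and the 10 highest-valued rises; Lrat, Mertk, Tyr, Mitf, Cdk1 and the other genes named beside these were chosen after their values were seen. Some genes are not reported here. RefSeq promoter windows (GRCm38.p6) matched 9809 of the genes tested. Alternatives were the 6 WT libraries alone, a replicate block, pseudocounts, filters, no variance trend, library weights, a photoreceptor term and leaving out single libraries.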

Additional observations from a re-analysis of the deposited data

Results flagged for a closer look

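For 6 genes the age change differed between WT and the libraries labelled cKO by a test of the difference itself (limma interaction, adjusted p under 0.05; 3 libraries in each of 4 groups). The WT change minus the cKO change was 6.02 (log2) for Rgr, -3.87 for Ttr, -2.07 for Ism2, -2.04 for Kcnh1, -1.74 for Kcnk1 and -1.57 for Lypd1. Rgr, Kcnh1 and Lypd1 passed the filter through a single WT age, so the direction of their WT change was set once they were tested. Ttr held the same rank, and so the same quantile-normalised value (77449), in P5 WT replicates 1 and 2 and in P5 cKO replicate 3.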

How the results depend on the processing

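With library weights, whose estimate did not converge, 3928 genes rose and 5270 fell, and 15 interactions were called; under every other alternative run both counts stayed within 1.5 times the 2040 and 3173, from 1443 to 2904 and from 2274 to 3751. Without single libraries the interaction counts ran from 3 to 12, and among genes averaging at least 200 there were 2. The replicate numbers were not treated as pairs in the main fit. Same-number correlations of the WT ages were 0.11, 0.065 and 0.272, the last the highest of any WT pair across ages. E15.5 WT replicate 2 was closest to P5 WT replicate 1 (0.269). A replicate block gave 2038 rises, 3116 falls and 3 interactions. The 6 WT libraries alone gave 1481 and 2364. A photoreceptor term gave 2904 rises and 3572 falls, holding 1425 and 1979 of the calls, and turned 10 of the 276 named genes it was run for: Llgl2 (-0.12), Srebf1 (-0.12), Neurod4 (-0.24), Neurod1 (-0.70), Sfrp2 (0.026), Snap25 (-1.87), Slc17a7 (-2.06), Syt1 (-1.78), Tmem119 (0.44) and Sox9 (-0.002); the cause was not tested. The photoreceptor signal does not overlap between the ages, so calls lost and signs turned with its term cannot be fully told apart from age. Without P5 WT replicate 2, Sox9 was at -0.014, and without P5 WT replicate 1 at 0.304. In all, 207 of 283 named genes kept direction and side of the threshold under the alternatives run for them. The floor of 50 limits what can be seen of genes at or below it.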
